A study of Homo sapiens with 24 samples.

Results

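The 10 genes described here make, bind, read or remove retinoic acid, or respond to it. They were named by symbol as ALDH1A3, ALDH1A1, DHRS3, CRABP2, RARA, RARB, RARG, CYP26A1, CYP26B1 and RARRES1, and 9 of them had a row among the 18889 genes of the deposited table. The expression of CYP26A1 was not analysed here. The list was drawn up with the glucose and line contrasts of these data already known, so the members' values and calls are given as a description without p-values.

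The data are RNA-Seq profiles of 24 cultures of 3 established human breast cancer cell lines positive for the estrogen receptor (ER+), named HCC1500, MDA-MB-175 and ZR-75-30. Cells spent 48 hours in medium with either 5 mM glucose, the control and called low here, or 25 mM glucose, which models hyperglycemia and is called high, with 4 cultures in each of the 6 groups. Per the study's methods, all cells were first conditioned in low glucose and then kept without serum in either medium. The study's methods mention mannitol, added to match osmolarity, for the control medium of some experiments, and whether these low glucose cultures had it is not given in the sources used here. Each line stands for 1 tumor. Nothing states how separately the 4 cultures of a group were grown, so p-values measure the spread between these samples, which may be technical.

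Retinol taken up by a cell is oxidized to retinal and then, by aldehyde dehydrogenases such as ALDH1A1 and ALDH1A3, to retinoic acid. Retinoic acid is carried to the nucleus by CRABP2, where it binds retinoic acid receptors (RARs) paired with retinoid X receptors (RXRs) on DNA, and is broken down by CYP26 enzymes. In epithelium the signal is known for promoting differentiation, and several genes that limit it, among them DHRS3 and CYP26A1, are themselves switched on by it.

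RAR-RXR pairs bind direct repeats of a short half-site, so the stretches ahead of the members' transcription starts were searched for it. The half-site AGGTCA and its variants were searched on both strands as direct repeats spaced by 1, 2 or 5 bases. The first variant was AGTTCA, another was GGGTCA and the last was GGTTCA. The searched stretches were RefSeq windows of 300 bases (250 before and 50 after the start, GRCh38.p14). All 10 members had at least 1 window. A repeat was present in 2 of the 18 member windows, one of RARB and one of CYP26A1, both spaced by 5 bases. Of all 35116 windows 0.26% held one, as did 0.32% of 27305 genes, and 0 of 58 windows of 36 other retinoid genes did. The 120 bases before the start are shown for these windows and for ALDH1A3, the member with the widest range between the lines, in which no repeat matched. Capitals mark the half-sites, which in CYP26A1 lie on the opposite strand, and all 3 are printed on the plus strand of chr3:25428143-25428262, chr10:93073773-93073892 and chr15:100879711-100879830.
RARB: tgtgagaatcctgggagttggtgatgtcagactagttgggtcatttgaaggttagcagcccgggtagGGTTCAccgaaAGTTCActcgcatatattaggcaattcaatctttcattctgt
CYP26A1: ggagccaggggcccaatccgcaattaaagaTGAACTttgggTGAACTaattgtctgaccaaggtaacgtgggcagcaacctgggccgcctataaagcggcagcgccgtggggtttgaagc
ALDH1A3: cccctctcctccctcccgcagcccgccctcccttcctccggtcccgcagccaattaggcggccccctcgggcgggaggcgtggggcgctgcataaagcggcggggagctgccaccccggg
In RARB the repeat ran from base -53 to base -37 before the start and read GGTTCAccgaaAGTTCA. In CYP26A1 it ran from base -90 to base -74 and read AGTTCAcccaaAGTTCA on the minus strand. A match describes letters only, and the absence of one says nothing of the receptors.

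The libraries held 9140024 to 17998819 reads, recovered from the deposited values, and the detection floor, set at 3 reads, lay at a normalized read count of 0.953 to 2.29. In HCC1500 the third high glucose culture stood apart from its group. Across 13310 genes it correlated with the other 3 cultures of its group at a mean r of 0.944, against 0.99 or more for every other library with its group. It lay over 1 log2 unit from its group at 23.91% of genes, against at most 1.74% in any other library. Its mean correlation with the other lines' groups was 0.625 to 0.665, and with the HCC1500 low glucose cultures it was 0.937. HCC1500 results are therefore given with and without it for most members and for the counts of genes called. Where a single HCC1500 result is printed, it includes that culture. Of 8 markers of ER+ luminal epithelium, 7 exceeded the floor in all 24 samples and PGR in 11. ESR1, the estrogen receptor itself, ranged from 255 to 3962. Of the markers of other cell types, COL1A2, DCN and PDGFRB of fibroblasts were over the floor in 8, 2 and 1 samples, and COL1A1 was at 67.1 to 256. The summed fibroblast markers were 100 to 116 at low and 78.1 to 97.3 at high glucose in ZR-75-30, and 227 to 256 and 169 to 224 in HCC1500, while the MDA-MB-175 groups overlapped. In ZR-75-30 and HCC1500 COL1A1 alone makes up nearly all of the fibroblast sum. The summed luminal markers were 48986 to 53631 at low and 34885 to 40749 at high glucose in ZR-75-30 and overlapped between conditions elsewhere. KRT8, KRT18 and KRT19 make up most of this sum, and single luminal markers moved without overlap. In ZR-75-30 EPCAM went against the sum, from 1252 to 1377 at low to 1501 to 1551 at high glucose. In MDA-MB-175 ESR1 was 330 to 338 and then 255 to 263, and FOXA1 2126 to 2325 and then 1913 to 2065. KRT18 was 9557 to 11293 there and then 11853 to 13182. In HCC1500 EPCAM and KRT8 rose and GATA3 fell. Without the culture that stood apart, ESR1 and PGR were also higher there at high glucose, and KRT18, KRT19 and FOXA1 lower, without overlap. ESR1 then read 3133 to 3221 at low and 3837, 3962 and 3870 at high glucose, and 2796 in the culture left out. Single markers of other cell types moved in MDA-MB-175 without overlap between conditions. COL1A2 was 16.3 to 21.3 at low and 8.20 to 13.7 at high glucose, endothelial VWF 43.2 to 55.6 and then 32.1 to 39.2, and endothelial CDH5 17.1 to 22.1 and then 25.8 to 33.3. The macrophage marker CD68, which is also a lysosomal gene, was 4.58 to 6.82 at low and 33.6 to 43.9 at high glucose in ZR-75-30, and 0.76 to 1.29 and 1.49 to 3.69 in HCC1500. CD68 shares 1765 of its 2163 exon bases with another gene on the same strand, so reads there cannot be told apart. The part of these markers in the glucose results was not tested.

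High glucose came with higher ALDH1A3, DHRS3, RARRES1 and RARG and lower ALDH1A1 in MDA-MB-175. It came with higher DHRS3 and CRABP2 and lower ALDH1A1 in ZR-75-30, where ALDH1A3 did not separate the conditions. DHRS3 and RARG were higher and RARB lower in HCC1500, which had almost no ALDH1A3 reads. DHRS3 was the 1 member that passed the test in the same direction in all 3 lines. Its call in HCC1500, like that of RARB, was lost when certain single cultures were left out. CRABP2 also passed the test as higher in MDA-MB-175, where its groups overlapped. Without the culture that stood apart, CRABP2 was called lower and RARA higher in HCC1500 as well. Log2 differences below are high minus low glucose on the log2(value + 1) scale, ± SE from limma, and all levels are normalized read counts.

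**Figure D1:**
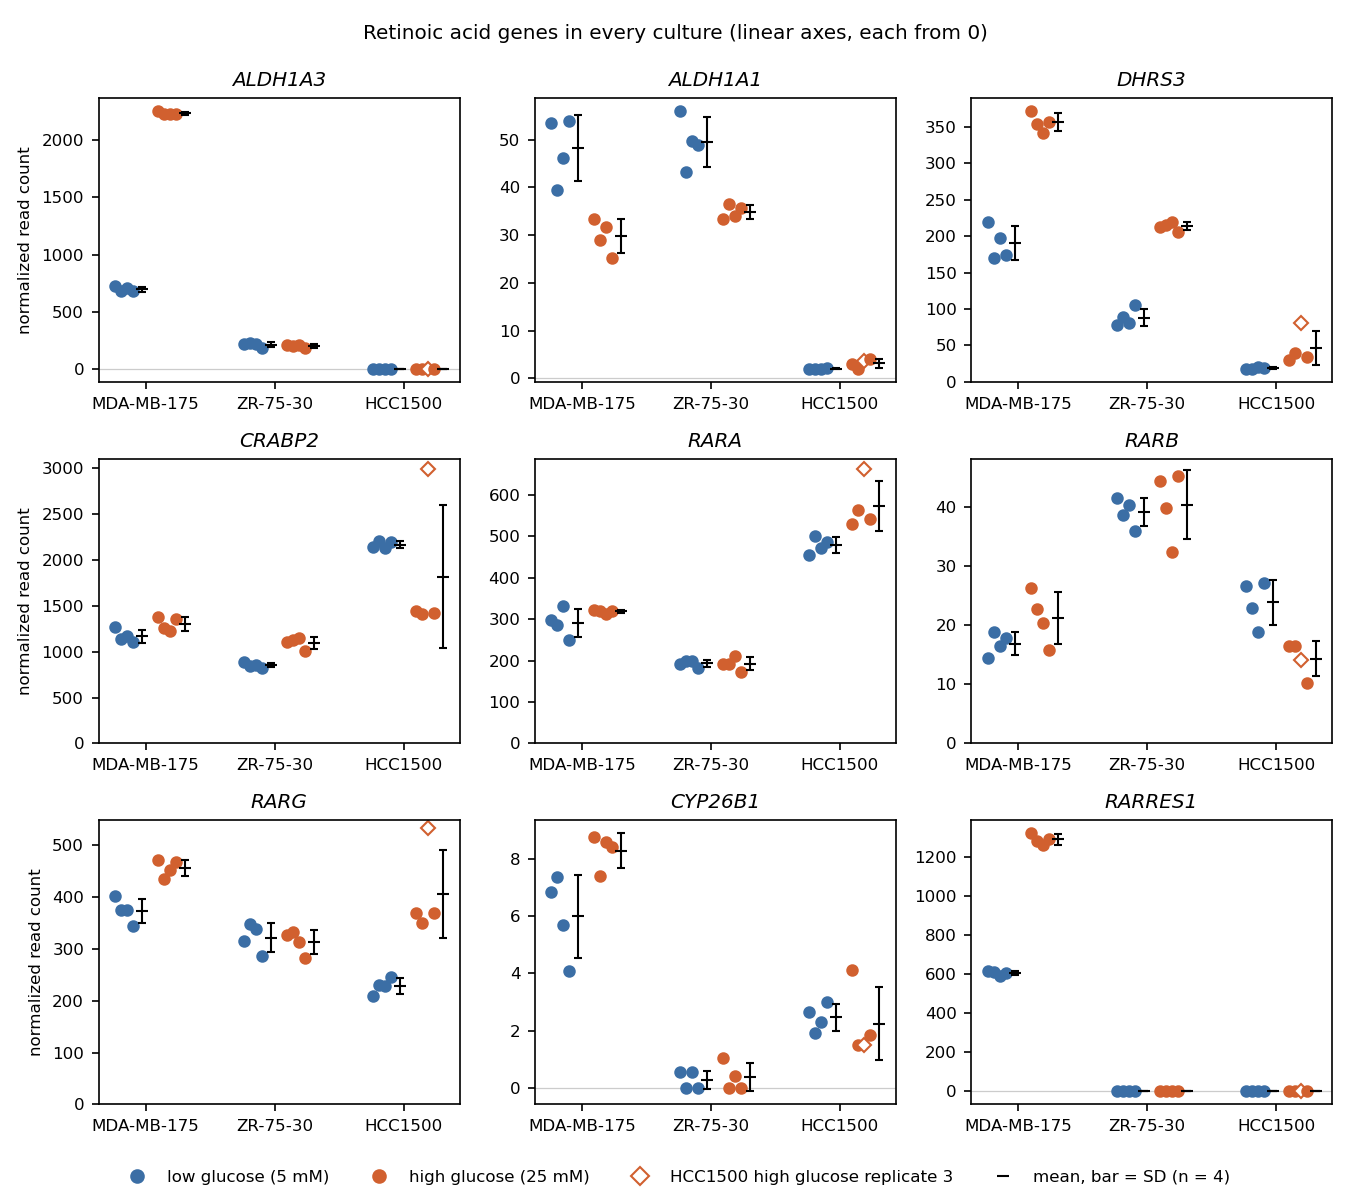
Normalized read count (vertical, linear, from 0) of 9 genes in every culture by line (horizontal) and glucose, with mean ± SD of 4 cultures. ALDH1A3 in MDA-MB-175 lies at 680 to 724 at low and 2222 to 2251 at high glucose, and the open diamond (HCC1500 high glucose replicate 3) lies above its group for CRABP2, DHRS3, RARA and RARG.

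ALDH1A3 oxidizes retinal to retinoic acid and had the widest difference of the members in MDA-MB-175. Its 4 low glucose cultures read 724, 683, 710 and 680, and its high glucose cultures 2251, 2225, 2222 and 2226. The groups were far apart and each was tight, and the mean rose 3.19-fold (log2 difference 1.67 ± 0.04). In ZR-75-30 the gene read 222, 230, 224 and 183 at low glucose and 215, 205, 215 and 184 at high glucose. These groups overlapped, and the difference was -0.07 ± 0.08. In HCC1500 the gene was at the floor, with 2 reads in 1 of 4 low glucose cultures and 5 reads in all at high glucose, 4 of them in replicate 1, so it was not tested. Of its 5335 exon bases, 1715 are shared with ALDH1A3-AS1 on the opposite strand. Whether reads were counted by strand is not given in the sources used here, so reads of the pair cannot be told apart.

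ALDH1A1, the related dehydrogenase, was lower at high glucose in MDA-MB-175 and ZR-75-30. MDA-MB-175 read 53.4, 39.5, 46.1 and 53.9 at low glucose and 33.3, 29.0, 31.6 and 25.2 at high glucose. ZR-75-30 read 56.0, 43.2, 49.6 and 48.9 at low and 33.3, 36.5, 34.0 and 35.6 at high glucose. In both lines every high glucose culture was below every low glucose culture. The differences were -0.67 ± 0.14 and -0.49 ± 0.13. Thus in MDA-MB-175 the retinal dehydrogenases moved in opposite directions, with ALDH1A1 at 48.2 ± 6.80 and then 29.8 ± 3.51, and ALDH1A3 at 699 ± 21.2 and then 2231 ± 13.3 (mean ± SD at low and at high glucose, n = 4). Per kilobase of exon, ALDH1A3 exceeded ALDH1A1 in that line at both glucose levels, at 131 against 17.0 at low and 418 against 10.5 at high. In HCC1500 ALDH1A1 read 1.90 to 2.15 at low and 1.99 to 4.15 at high glucose, on 4 to 9 reads a culture, and these ranges overlapped. The difference there was above 0, at 0.47 ± 0.24 with all cultures and 0.41 ± 0.34 without the one that stood apart, and neither passed the test, while in 1 fit of all 24 samples it did.

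DHRS3 reduces retinal back to retinol and so lowers the substrate for retinoic acid. In MDA-MB-175 it read 220, 170, 197 and 174 at low and 372, 354, 342 and 357 at high glucose (difference 0.91 ± 0.07). In ZR-75-30 it read 78.1, 89.3, 80.9 and 105 at low and 213, 216, 219 and 206 at high glucose (1.27 ± 0.09). In neither line did the groups overlap, and the means rose 1.87-fold and 2.42-fold. In HCC1500 it read 17.5, 17.2, 20.7 and 18.9 at low and 30.1, 40.3, 80.2 and 33.7 at high glucose, where 80.2 is the culture that stood apart. All 4 high glucose cultures remained above the low ones, and the ratio of means was 2.48 with that culture and 1.87 without it (1.16 ± 0.29 and 0.86 ± 0.16). Leaving out any 1 low glucose culture of HCC1500 kept a difference of 1.12 to 1.21 but ended the call.

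CRABP2, which delivers retinoic acid to the receptors, was the most abundant member, ranked 816 of 18889 genes by mean value. MDA-MB-175 read 1267, 1142, 1174 and 1102 at low and 1378, 1256, 1224 and 1353 at high glucose. These groups overlapped and the difference was small (0.15 ± 0.05). It passed the test with all cultures and no longer did without low glucose replicate 2, 3 or 4 or high glucose replicate 1 or 4, where it was 0.13 to 0.16. In ZR-75-30 it read 889, 850, 855 and 825 at low and 1111, 1131, 1146 and 1003 at high glucose, which did not overlap (0.36 ± 0.04). In 1 fit of all 24 samples, where the lines share 1 residual spread, CRABP2 did not pass the test in either line. HCC1500 went the other way in 3 of 4 cultures, with 2139, 2208, 2134 and 2196 at low and 1448, 1414, 2995 and 1427 at high glucose. The value of 2995 came from the culture that stood apart. With it the difference was -0.33 ± 0.23 and did not pass the test, and without it the difference was -0.60 ± 0.03 and did.

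The 3 receptors were not called in the same lines. RARA, the receptor of broadest expression, read 298, 285, 331 and 250 at low and 321, 320, 313 and 320 at high glucose in MDA-MB-175. It read 191, 199, 200 and 183 at low and 192, 192, 212 and 173 at high glucose in ZR-75-30. Both pairs of groups overlapped (0.14 ± 0.07 and -0.01 ± 0.07). Without low glucose replicate 3, at 331, the MDA-MB-175 difference was 0.20 and passed the test. In HCC1500 it read 455, 500, 472 and 487 at low and 529, 564, 662 and 541 at high glucose, with no overlap. That difference was 0.26 ± 0.09, which did not pass the test, and 0.19 ± 0.04 without the culture that stood apart, which did. With all cultures it also passed in 1 fit of all 24 samples (0.26), under median-of-ratios scaling, and by edgeR and DESeq2 on the recovered reads, at 0.30 to 0.31. RARA shares 556 of its 4743 exon bases with RARA-AS1 on the opposite strand.

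RARG, the receptor prominent in skin and other epithelia, was higher at high glucose in 2 lines. MDA-MB-175 read 402, 375, 375 and 345 at low and 471, 436, 452 and 468 at high glucose (0.29 ± 0.05). HCC1500 read 209, 230, 228 and 246 at low and 370, 351, 533 and 369 at high glucose (0.81 ± 0.14, and 0.67 ± 0.05 without 533). In both lines all high glucose cultures were above the low ones. ZR-75-30 read 315, 349, 338 and 286 at low and 328, 333, 313 and 282 at high glucose, which overlapped (-0.04 ± 0.07).

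RARB, whose promoter with the direct repeat is printed above, was the scarcest receptor. Its level in MDA-MB-175 was 14.4, 18.8, 16.5 and 17.8 at low and 26.2, 22.7, 20.3 and 15.8 at high glucose (0.30 ± 0.19). In ZR-75-30 it was 41.5, 38.7, 40.4 and 35.9 at low and 44.3, 39.8, 32.3 and 45.2 at high glucose (0.04 ± 0.14). Both pairs of groups overlapped. In HCC1500 it was 26.6, 22.9, 18.8 and 27.1 at low and 16.5, 16.4, 14.1 and 10.2 at high glucose, without overlap, on 19 to 72 reads a culture. The difference of -0.71 ± 0.20 was the same without the culture that stood apart. It stayed below 0 but lost its call when low glucose replicate 1, 2 or 4, or high glucose replicate 1, 2 or 4, was left out (-0.78 to -0.56), and under median-of-ratios scaling (-0.66).

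**Figure D2:**
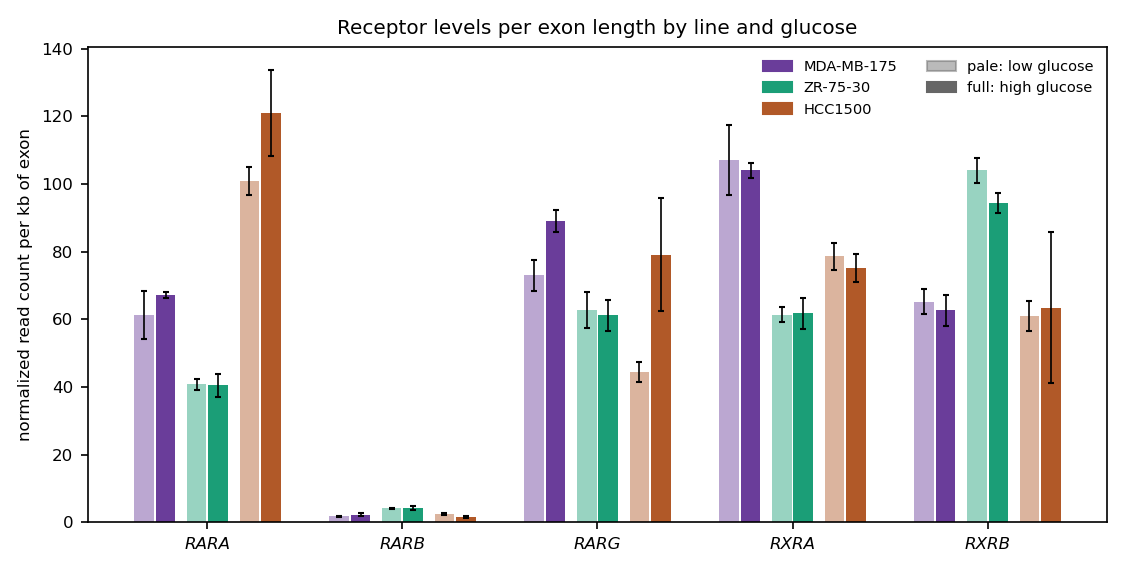
Normalized read count per kilobase of exon (vertical, from 0) of RARA, RARB, RARG, RXRA and RXRB by line, pale for low and full color for high glucose, as mean ± SD of 4 cultures. RARB lies at 1.51 to 4.28 in all groups, while the other 4 receptors lie between 40.5 and 121.

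Receptor levels were compared per kilobase of exon, since the genes differ in length from 4743 to 9445 exon bases among the RARs. At low glucose RARB was lowest in MDA-MB-175 at 1.79 ± 0.198, followed by HCC1500 at 2.52 ± 0.41 and ZR-75-30 at 4.14 ± 0.262 (SD, n = 4). With the lines taken as MDA-MB-175, then ZR-75-30, then HCC1500, RARA measured 61.4 ± 7.12, 40.8 ± 1.65 and 101 ± 4.12, and RARG 73.0 ± 4.59, 62.8 ± 5.40 and 44.5 ± 2.98. RARG was thus above RARA in ZR-75-30 and RARA above RARG in HCC1500, while in MDA-MB-175 they differed by less than 2 SD of RARA. The RXR partners RXRA and RXRB differed in balance. In MDA-MB-175 they measured 107 ± 10.3 and 65.2 ± 3.64, in HCC1500 78.6 ± 4.01 and 61.0 ± 4.53. ZR-75-30 had the reverse, with 61.4 ± 2.18 and 104 ± 3.83. By normalized read count RXRA was above RXRB in ZR-75-30 too, at 741 ± 26.3 against 404 ± 14.9. The reversal thus depends on the exon lengths used, 12077 bases for RXRA and 3897 for RXRB. RXRA did not pass the test for glucose in any line with all cultures (limma adjusted p = 0.662, 0.914 and 0.619 in the same order). RXRB passed it in ZR-75-30 alone, with a difference of -0.13 ± 0.05 (adjusted p = 0.0295). Without the HCC1500 culture that stood apart, RXRA and RXRB passed it in HCC1500 as well, at -0.10 ± 0.04 and -0.21 ± 0.06 (adjusted p = 0.0337 and 0.00521). RXRG was not analysed here.

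CYP26B1, which breaks retinoic acid down, was near the floor. In MDA-MB-175 it read 6.82, 7.37, 5.69 and 4.07 at low and 8.74, 7.38, 8.59 and 8.41 at high glucose, on 8 to 22 reads a culture. The lowest high glucose value exceeded the highest low one by less than the worth of 1 read, and the difference of 0.43 ± 0.24 did not pass the test. HCC1500 read 1.91 to 3.01 at low and 1.49 to 4.13 at high glucose, which overlapped. ZR-75-30 had no more than 2 reads in any culture, and the gene was not tested there.

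RARRES1, named for its induction by retinoic acid, was abundant in MDA-MB-175 alone. There it read 614, 611, 592 and 606 at low and 1322, 1279, 1260 and 1293 at high glucose. The groups were tight and apart, and the mean rose 2.13-fold (1.09 ± 0.04). ZR-75-30 read 0.00 to 2.77 at low and 0.425 to 2.08 at high glucose, and HCC1500 0.635 to 2.58 and 1.18 to 4.46, on 0 to 8 reads a culture. A difference was not detectable in those lines at this depth. Of its 2029 exon bases, 292 are shared with MFSD1 on the opposite strand.

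**Figure D3:**
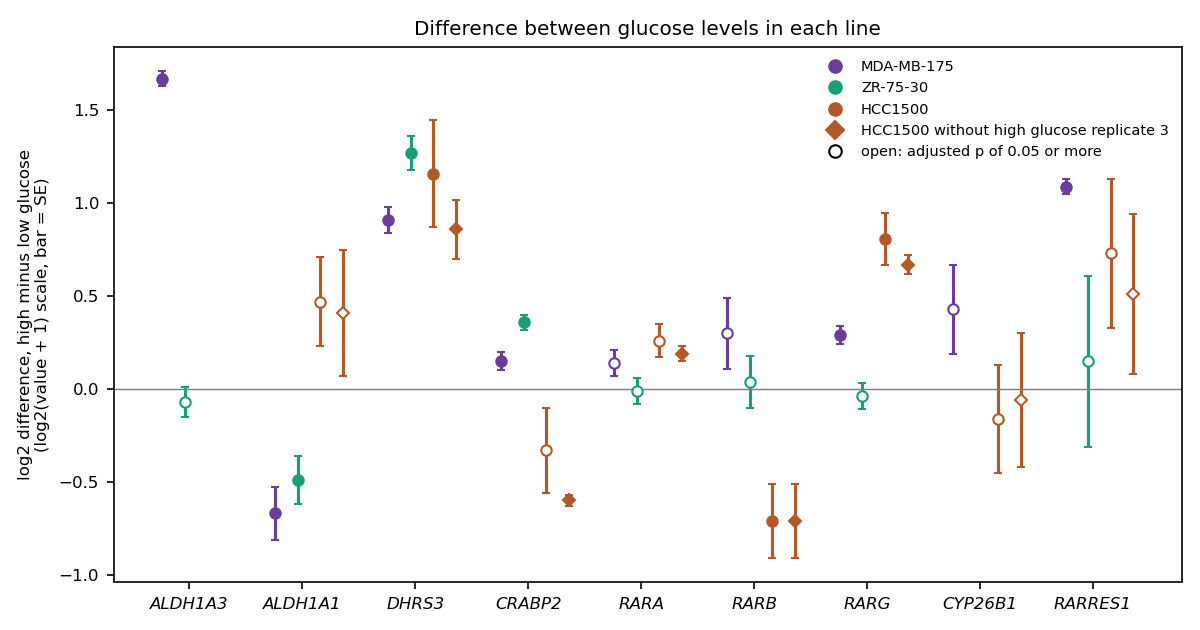
Log2 difference, high minus low glucose (vertical, ± SE), for 9 genes (horizontal) in each line, filled where the adjusted p was under 0.05, with HCC1500 also shown without high glucose replicate 3 (diamonds). DHRS3 is filled in all 3 lines at 0.91, 1.27 and 1.16, and CRABP2 in HCC1500 turns from open at -0.33 to filled at -0.60 without that culture.

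In MDA-MB-175, 6 of 9 members passed the test, 5 of them higher, where 25.7% of 17029 genes passed it and 11.9% were higher. In ZR-75-30, 3 of 8 members tested passed it, 2 of them higher, against 46.0% of 15834 genes and 23.4% higher. In HCC1500, 3 of 8 members tested passed it, 2 of them higher, against 20.5% of 16361 genes and 7.46% higher. Without high glucose replicate 3 the HCC1500 counts were 5 of 8 members, 3 of them higher, and 58.5% of 16235 genes, 20.9% higher. In 1 fit of all 24 samples 3, 2 and 5 members passed in the same order of lines, RARG and RARRES1 being lost in MDA-MB-175 with CRABP2. The HCC1500 members' count was also 1 when low glucose replicate 1, 2 or 4 was left out. High and low glucose cultures did not overlap for 26.6% of genes tested in MDA-MB-175, 42.0% for ZR-75-30 and 32.4% for HCC1500. The members were picked with these contrasts known, and nothing is read from their counts. The median difference of the members tested was 0.30, 0.01 and 0.36 in the 3 lines, beside -0.02, 0.01 and -0.06 for all genes tested. In HCC1500 36.4% of all calls were higher, and under median-of-ratios scaling 48.9% were, while all 12 member calls kept their sign under both other scalings.

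The glucose response differed between lines for ALDH1A3, ALDH1A1, CRABP2, RARB and RARG by limma's F test on all 24 samples, which 29.3% of 18144 genes passed. Without HCC1500 high glucose replicate 3, DHRS3 passed it as well and 48.6% of 18127 genes did. This too is a description, because the contrasts chose the genes. Beside it stand the values of ALDH1A3, apart in MDA-MB-175 and overlapping in ZR-75-30, and of CRABP2, higher at high glucose in ZR-75-30 and lower in 3 of 4 HCC1500 cultures. ALDH1A3 was at the floor in HCC1500, so the F test could not measure its response in that line. For DHRS3 the 3 differences, 0.91, 1.27 and 1.16, had the same sign.

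Between lines at low glucose, ALDH1A3 spanned the widest range. Its mean was 699 ± 21.2 in MDA-MB-175 against 215 ± 21.3 for ZR-75-30, while HCC1500 had 2 reads over 4 cultures (mean 0.159). On those 2 reads the ratio of MDA-MB-175 to HCC1500 was 4404, with a 95% exact Poisson interval of 1219 to 36363, and that of ZR-75-30 to HCC1500 was 1353 (375 to 11173). These intervals cover counting error only. RARRES1 was 606 ± 10.1 in MDA-MB-175, with means of 1.22 and 1.19 in ZR-75-30 and HCC1500, which did not differ beyond their spread. For ALDH1A1 MDA-MB-175 and ZR-75-30 were within the spread of each other, at 48.2 ± 6.80 and 49.4 ± 5.21, and HCC1500 was at 1.97 ± 0.123. DHRS3 went from 190 ± 23.3 to 88.4 ± 12.3 to 18.6 ± 1.62 from MDA-MB-175 over ZR-75-30 down to HCC1500, with no overlap between neighbors.

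The order of the lines was another for the binding protein and the receptors. CRABP2 was highest in HCC1500 at 2169 ± 38.5, then 1171 ± 70.2 in MDA-MB-175 and 855 ± 26.3 in ZR-75-30. RARA had the same order, at 478 ± 19.6, 291 ± 33.8 and 193 ± 7.82. RARB was highest in ZR-75-30, at 39.1 ± 2.47. HCC1500 had 23.8 ± 3.87 and MDA-MB-175 16.9 ± 1.87, and the lowest culture of the former and the highest of the latter both read 18.8. RARG was 374 ± 23.5 in MDA-MB-175 and 322 ± 27.7 in ZR-75-30, where single cultures overlapped, and 228 ± 15.3 in HCC1500. CYP26B1 was 5.99 ± 1.46 in MDA-MB-175 and 2.47 ± 0.476 in HCC1500, and ZR-75-30 had 0.281 ± 0.324. In bulk cultures fewer expressing cells and less RNA per cell cannot be told apart. Each line enters a pair of these comparisons with the same 4 low glucose cultures. The low glucose cultures did not overlap for 7 of 9 members between MDA-MB-175 and ZR-75-30, for all 9 between MDA-MB-175 and HCC1500 and for 8 between ZR-75-30 and HCC1500. The same held for 63.5%, 74.5% and 74.5% of all genes, and nothing is read from the members' counts. The median difference of all genes between ZR-75-30 and HCC1500 was -0.23 as deposited, -0.11 under median-of-ratios and -0.43 under CPM scaling (each library scaled to the same total). All 24 member differences called between lines kept their sign under both.

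By Pearson correlation of log2 values over the 24 samples, the genes most like ALDH1A3 among 13310 genes with a mean of at least 10 were PRKCA (a protein kinase C, 0.994), CDKN2B (a cell-cycle inhibitor, 0.993), RFTN1 (a lipid raft protein, 0.993), ATP11A (a phospholipid flippase, 0.993) and NTN4 (a secreted netrin, 0.991). The 24 samples form 6 groups of 3 lines, so they are not independent and these coefficients are a description. NTN4 averaged 904 at low and 1990 at high glucose in MDA-MB-175. Its means were 150 and 362 for ZR-75-30, with 0.604 and 1.14 for HCC1500. PRKCA averaged 275 and 381, 69.5 and 92.7, and 0.454 and 0.535 in the same groups. CDKN2B was listed at 0 in all HCC1500 cultures and averaged 102 and 150 in MDA-MB-175.

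A wider list of 52 other retinoid genes, of which 41 had a row, gives the setting of the members. In MDA-MB-175, 14 of the 40 tested rose and 2 fell, where 11.9% of all genes rose and 13.7% fell. For ZR-75-30 it was 9 of 35 that rose and 9 that fell, beside 23.4% and 22.7% of all genes. Of 32 tested in HCC1500, 4 rose and 4 fell, beside 7.46% and 13.0% of all genes. Without high glucose replicate 3 the HCC1500 counts were 6 and 11 of 32, beside 20.9% and 37.7% of all genes. The ZR-75-30 and HCC1500 counts thus lay near the shares of all genes, and nothing is read from the counts of the list or its groups, which were drawn up with earlier results of these data known. The median differences were 0.14, 0.12 and -0.09 in the 3 lines, beside -0.02, 0.01 and -0.06 for all genes tested. The fall-off in numbers tested reflects genes with hardly any reads in a line, such as STRA6 in ZR-75-30. Apart from RXRA and RXRB, the genes named from this list were picked by their calls or values in these contrasts. Their adjusted p-values are thus a description and no separate support.

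**Figure D4:**
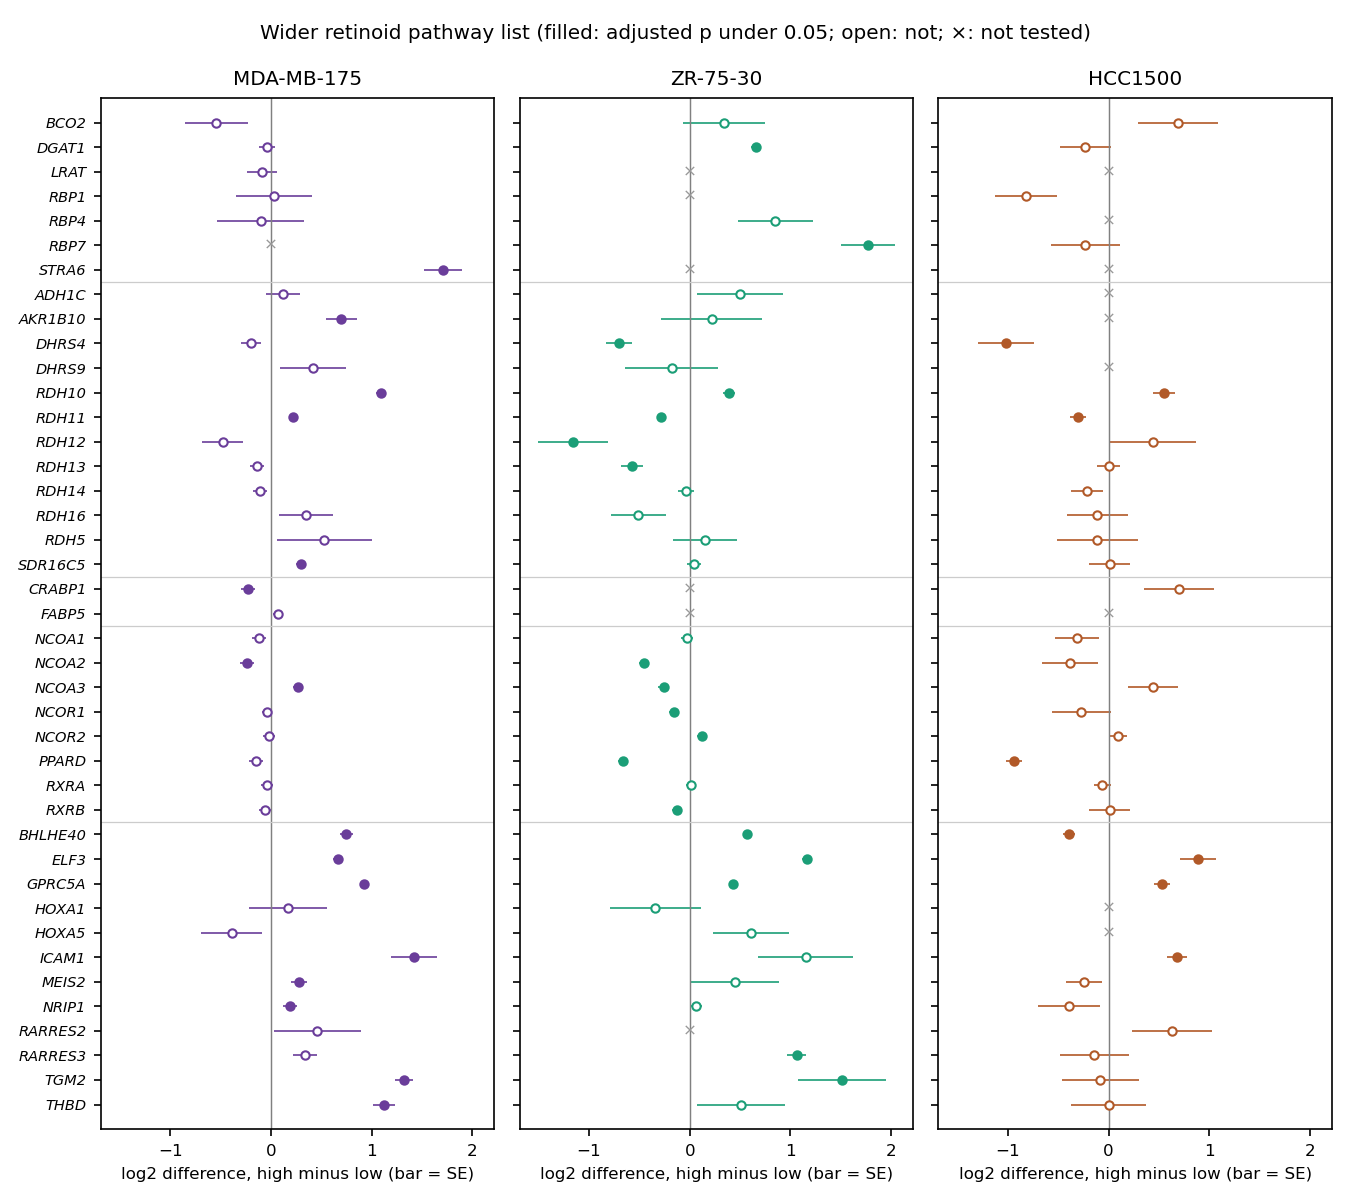
Log2 difference, high minus low glucose (horizontal, ± SE), of 41 other retinoid genes (vertical, grouped from top to bottom as uptake and storage, oxidoreductases, binding, receptor partners and cofactors, responsive genes) in each line, filled where the limma adjusted p was under 0.05. RDH10, GPRC5A and ELF3 are filled and above 0 in all 3 lines.

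RDH10, which performs the first oxidation of retinol to retinal, rose in all 3 lines. It went from 334, 344, 350 and 354 to 739, 776, 686 and 744 in MDA-MB-175 (1.09 ± 0.05, adjusted p = 1.7e-10). In ZR-75-30 it went from 281, 274, 272 and 297 to 398, 333, 375 and 370 (0.39 ± 0.06, adjusted p = 2e-05). In HCC1500 it went from 55.9, 61.6, 53.3 and 52.1 to 87.3, 79.6, 87.6 and 74.8 (0.55 ± 0.11, adjusted p = 0.00879). No groups overlapped, and the size differed between lines (limma F test, adjusted p = 1.9e-05). Of the 12 oxidoreductases with a row, 4 passed the test in MDA-MB-175, all higher, and 5 in ZR-75-30, 1 of them higher, while 3 of 9 tested passed it in HCC1500, 1 of them higher. The shares of all genes that passed it were 25.7%, 46.0% and 20.5%. Without high glucose replicate 3, 5 of 9 passed it in HCC1500, 1 of them higher, beside 58.5% of all genes. RDH11, a retinal reductase, was called in opposite directions, rising by 0.22 ± 0.04 on the log2 scale in MDA-MB-175 while ZR-75-30 was at -0.28 ± 0.04 and HCC1500 at -0.30 ± 0.08 (F test, adjusted p = 1.5e-05). DHRS4, a reductase of retinal and other carbonyls, fell by 0.70 in ZR-75-30 and by 1.02 in HCC1500 on the log2 scale (adjusted p = 0.00032 and 0.033). In HCC1500 its culture that stood apart, at 60.1, overlapped the low glucose range of 58.1 to 78.8, and without it the difference was -1.31 ± 0.14. RDH12, another retinal reductase, fell in ZR-75-30 from 4.68 ± 1.53 to 1.56 ± 0.686 on at most 12 reads a culture (-1.16 ± 0.35, adjusted p = 0.0107).

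Among genes of uptake and storage, STRA6, the membrane receptor that imports retinol, rose in MDA-MB-175 from 10.8, 8.04, 6.83 and 7.63 to 31.6, 25.6, 29.3 and 31.0. The difference was 1.71 ± 0.19 (limma adjusted p = 5e-06). STRA6 had 0 reads in all ZR-75-30 cultures and 3 in all of HCC1500. RBP7, a cellular retinol-binding protein, had the reverse pattern, with 0 reads in MDA-MB-175. In ZR-75-30 it rose from 4.99, 5.12, 3.42 and 8.40 to 26.0, 19.6, 20.8 and 15.8 (1.77 ± 0.27, adjusted p = 2.4e-05). In HCC1500 it read 119 to 135 at low glucose and 75.5, 97.0, 244 and 78.9 at high glucose, where 244 is the culture that stood apart. That difference was -0.23 ± 0.34 with it (adjusted p = 0.685) and -0.62 ± 0.09 without it (adjusted p = 1.1e-05). CRABP1, the second binding protein, fell in MDA-MB-175 from 183 ± 9.02 to 156 ± 6.87 (-0.23 ± 0.07, adjusted p = 0.0171).

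Of the 8 receptor partners and cofactors, 1 rose and 1 fell in MDA-MB-175, and 1 rose and 5 fell in ZR-75-30. In HCC1500 1 fell with all cultures, while 2 rose and 3 fell without high glucose replicate 3. The shares of all genes that passed in either direction were the same 25.7%, 46.0% and 20.5%, and 58.5% without that culture. PPARD, a nuclear receptor reported to bind retinoic acid, fell in ZR-75-30 from 549 ± 27.4 to 346 ± 3.40, and HCC1500 showed a fall from 510 ± 24.1 to 265 ± 18.1. The differences were -0.66 ± 0.05 and -0.94 ± 0.08 (limma adjusted p = 1.6e-09 and 0.00016). In MDA-MB-175 PPARD read 159 to 186 at low and 140 to 168 at high glucose (-0.15 ± 0.07, adjusted p = 0.171). The difference between lines passed the F test (adjusted p = 2.8e-06).

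Of the genes known to respond to retinoic acid, 8 of the 12 tested in MDA-MB-175 rose and none fell, where 11.9% of all genes rose and 13.7% fell. In ZR-75-30 5 of the 11 tested rose and none fell, beside 23.4% of all genes that rose and 22.7% that fell. In HCC1500 3 of 10 rose and 1, BHLHE40, fell, beside 7.46% and 13.0% of all genes. Without high glucose replicate 3 it was again 3 of 10 that rose and 1 that fell, beside 20.9% and 37.7% of all genes. This group too was drawn up with earlier results of these data known, and nothing is read from its counts. GPRC5A, first described as a retinoic acid-induced gene, rose in MDA-MB-175 from 2971 ± 75.9 to 5612 ± 86.1. Its levels in ZR-75-30 were 855 ± 18.1 and 1151 ± 24.6, and HCC1500 had 210 ± 8.12 at low and 304 ± 22.3 at high glucose. Its differences were 0.92 ± 0.04, 0.43 ± 0.04 and 0.53 ± 0.08 (limma adjusted p = 3.6e-11, 2e-08 and 0.00329). ELF3, an epithelial transcription factor, rose in MDA-MB-175 (2059 ± 153 at low, 3281 ± 101 at high glucose), ZR-75-30 (859 ± 22.3 and 1928 ± 144) and HCC1500 (607 ± 32.7 and 1164 ± 365). In HCC1500 its high glucose cultures read 1051, 935, 1706 and 963, all above the low glucose range of 581 to 654, and the difference was 0.89 ± 0.18 (adjusted p = 0.0096) and 0.69 ± 0.05 without 1706.

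The other responsive genes depended on the line. TGM2, a transglutaminase, rose in MDA-MB-175 from 53.0 to 67.7 at low glucose to 139 to 147 at high glucose (1.32 ± 0.09, limma adjusted p = 3.2e-08). It also passed the test in ZR-75-30 on 0 to 16 reads a culture, where the groups overlapped (1.51 ± 0.44, adjusted p = 0.00916). ICAM1, an adhesion molecule, rose in MDA-MB-175 from 6.92 ± 0.968 to 20.7 ± 6.19 (1.42 ± 0.23, adjusted p = 0.00022). It also rose in HCC1500 from 148 ± 10.1 to 239 ± 26.1 (0.68 ± 0.10, adjusted p = 0.00271). RARRES3, a phospholipase named like RARRES1 for its induction by a retinoid, rose in ZR-75-30 from 69.8, 85.9, 79.8 and 78.6 to 179, 153, 169 and 157 (1.06 ± 0.09, adjusted p = 1.2e-08). BHLHE40, a clock-linked repressor, fell in HCC1500 (-0.39 ± 0.06, adjusted p = 0.00367) but rose in both other lines, by 0.75 ± 0.06 on the log2 scale in MDA-MB-175 and by 0.57 ± 0.04 in ZR-75-30 (adjusted p = 2.1e-07 and 6.4e-09). Its high glucose cultures in HCC1500 read 1265 to 1313 against 1642 to 1719 at low glucose, and the culture that stood apart, at 1287, lay within its group. The difference between lines passed the F test for BHLHE40 (adjusted p = 7.3e-11).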

How the data were processed

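The authors deposited 1 table of normalized signal values for 24 RNA-Seq libraries, in an unstated unit. Dividing each sample's deposited values by the worth of 1 read gave whole reads for 100% of them (within 0.05 reads). The labels name edgeR and hg38 without a role, while the study's methods describe TopHat and hg19 for tumor samples, so the build of these counts is not settled. No coordinates are taken from the table. Exon lengths are from GENCODE release 44 lifted to GRCh37, which held 18183 of 18889 gene IDs (96.3%), and promoter windows are from RefSeq GRCh38.p14.

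In R 4.3.3, limma 3.58.1 with a variance trend was fitted to each line's 8 samples, using log2(value + 1) of genes at 0.5 or more in at least 4 samples. Benjamini-Hochberg adjustment ran over all genes and calls used 0.05. A fit of all 24 samples gave the F test between lines and the line differences. Adjusted p-values are limma's. This scale understates changes of low genes. The smallest chi-square per degree of freedom between 2 libraries of a group was 1.831, so each library counted as 1 sample. The fit was tested on simulated data.

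The members and lists were chosen with earlier results of these data known. Named genes were all members, RXRA and RXRB, listed genes called alike in all lines, the 3 largest non-overlapping rises and falls called per line, and the 5 genes most like ALDH1A3. DGAT1 and RDH13 were named after their values were seen. Alternatives changed the pseudocount (0.1, 0.5 and 5), the filter (none, or 10), the scaling (median-of-ratios, CPM), the tool (edgeR 4.0.16 and DESeq2 1.42.0 on recovered reads), the replicate block and the samples.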

Additional observations from a re-analysis of the deposited data

Results flagged for a closer look

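In 8 of 54 member and group combinations with any spread, 1 culture lay far from the other 3 by Dixon's ratio. Chance gives this in about 5% of groups of normally distributed values. That share does not hold for small whole read counts, so no excess is read from the 8. Of the 8, 2 are of abundant genes in HCC1500 high glucose replicate 3, the library that stood apart across the transcriptome. There CRABP2 read 2995 against 1414 to 1448 in the other 3 cultures, and RARG read 533 against 351 to 370. Another 2 concern ALDH1A3 where it was well counted. MDA-MB-175 high glucose replicate 1 read 2251 against 2222 to 2226, a gap that is narrow in absolute terms, and ZR-75-30 low glucose replicate 4 read 183 against 222 to 230.

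The other 4 rest on 2 to 7 reads. ALDH1A1 in HCC1500 low glucose replicate 4 read 2.15 against 1.90 to 1.92. ALDH1A3 in HCC1500 low glucose replicate 2 read 0.635 against 0 in the rest. CYP26B1 in HCC1500 high glucose replicate 1 read 4.13 against 1.49 to 1.85, and RARRES1 in HCC1500 low glucose replicate 4 read 2.58 against 0.635 to 0.767.

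Among the 41 other retinoid genes, 12 had a glucose response that differed between lines by limma's F test (adjusted p under 0.05), where 29.3% of all genes did. They were STRA6, RBP7, DGAT1, RDH10, RDH11, RDH12, RDH13, CRABP1, PPARD, RARRES3, GPRC5A and BHLHE40. Some of these had hardly any reads in a line. STRA6 had 0 reads in ZR-75-30, RBP7 had 0 in MDA-MB-175, and CRABP1 had 5 at low and 0 at high glucose in ZR-75-30. There the difference on the log2(value + 1) scale is held near 0, so the test cannot compare responses with that line. RDH11 and BHLHE40 were called in opposite directions in single lines.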

How the results depend on the processing

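No member's log2 difference that passed the test changed sign under any alternative. Of the 470 alternative values of single members, 439 kept their call, 21 lost it and 10 gained it. With 1 fit on all 24 samples, the members called in MDA-MB-175 went from 6 to 3 (CRABP2, RARG and RARRES1 were lost) and the wider list from 16 to 9, those in ZR-75-30 from 3 to 2 (CRABP2 was lost), and the members called in HCC1500 from 3 to 5. In that fit the residual spread is shared by all lines, HCC1500 high glucose replicate 3 included. Without that culture and with median-of-ratios scaling, HCC1500 had 5 members and 15 wider genes called (8 with all cultures), and 21 wider genes differed between lines (12 with all cultures). CPM scaling gave 19 for the latter. Leaving out 1 culture at a time gave 5 to 6 members and 14 to 17 wider genes in MDA-MB-175, 3 to 3 and 16 to 20 in ZR-75-30, and 1 to 5 and 6 to 17 in HCC1500. The lows of 1 member came without low glucose replicate 1, 2 or 4, and the highs of 5 and 17 without high glucose replicate 3. For the difference between lines it gave 4 to 6 members and 10 to 19 wider genes, with 19 again without that culture, and for line differences 7 to 9 members. Same-numbered cultures of a line had deviations correlated at a mean r of 0.036, 0.012 and 0.024 and in no line with every pair over 0.1. Cultures of other numbers had a mean r of -0.012, -0.004 and -0.008. Whether same-numbered cultures were handled together is not stated, and these values cannot settle it. In MDA-MB-175 and HCC1500 3 of 8 samples correlated best with their own number, and in ZR-75-30 1 of 8 did. With the replicate number as a block, 6, 3 and 2 members and 16, 18 and 6 wider genes were called in MDA-MB-175, ZR-75-30 and then HCC1500, RARB in HCC1500 being the member lost. Depth limits CYP26B1, RARRES1 in ZR-75-30, and ALDH1A3, ALDH1A1 and RARRES1 in HCC1500, to under 25 reads a culture.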
